A study of Mus musculus with 24 samples.

Results

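Mouse heart cells of the Sox17 condition were compared with control heart fibroblasts at day 7. The comparison rests on 6 of the 24 libraries of the study, 3 labelled Sox17 at day 7 and 3 labelled control at day 7, and covers all 14804 genes that passed a filter on low counts. EGM2, a medium for growing endothelium, was used for all of them. The labels give heart as tissue for both, fibroblast as the cell type of the controls and iEC as that of the Sox17 cells, and the question put by the design text is how far endothelial identity was gained. They do not give the strain, age or number of animals, the starting cells of the Sox17 samples, the way Sox17 was brought in, or whether the controls received an agent. Whether the 3 libraries per group are separate cultures is not said. The p-values therefore reflect only how far libraries of a group vary, possibly for technical reasons. That spread was estimated over all 24 libraries of the study, not over these 6 alone. Sox17 and control at day 3 and SEG at day 7 (3 libraries each) otherwise serve only to place the day 7 difference. SEG is a condition that carried both Sox17 and Erg in these counts and whose name the labels do not spell out.

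Sox17 belongs to the F group of SOX transcription factors, with Sox7 and Sox18. It binds DNA through an HMG box that reads a short core motif, ATTGT or ACAAT on the other strand. In the embryo it is needed for definitive endoderm and for hemogenic and arterial endothelium, where it acts beside Notch signalling and is kept on in arteries of the adult. Fibroblasts of the heart make and remodel collagen matrix, carry the receptor Pdgfra and the factor Tcf21, and can take on a contractile, myofibroblast state.

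The 3 Sox17 libraries held 44586227, 33180671 and 24090381 counts and the 3 control libraries 19183807, 23779851 and 24782231. Replicate 1 of Sox17 stood apart. Its share of counts on ribosomal protein genes was 7.42%. Of the others, 22 lay at 2.99% to 4.70%, and replicate 1 of SEG at day 7 at 5.13%. Its mitochondrial share was 0.880%, where those 22 lay at 1.39% to 2.01%. Its tested genes differed from those of replicates 2 and 3 by a median of 0.649 and 0.692 in log2 CPM (a gene's counts scaled to a common library total), and replicates 2 and 3 differed from each other by 0.108. The deviation followed transcript length. Relative to replicates 2 and 3, with genes in 5 equal groups by length, the group of shortest transcripts lay 0.36 higher in replicate 1 on the log2 scale in the median and the group of longest 0.67 lower. The comparison with control carried this slope, from a median log2 change of 0.20 in the shortest group to -0.13 in the longest. Without replicate 1 the medians of the 5 groups lay between -0.02 and 0.01. Values without it are given beside the results that they change most.

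**Figure D1:**
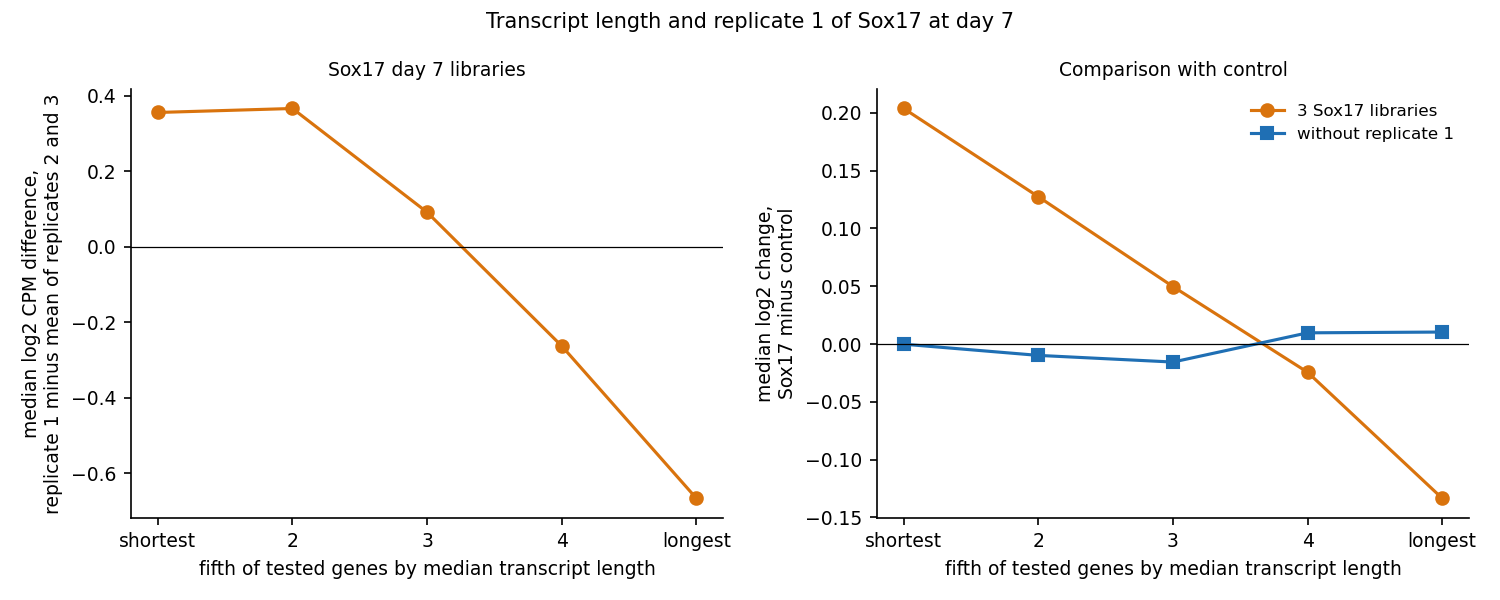
Median difference of log2 CPM between replicate 1 and the mean of replicates 2 and 3 of Sox17 at day 7 (left), and median log2 change of Sox17 against control (right), for 5 equal groups of the tested genes from short to long transcripts. Replicate 1 falls from 0.36 above to 0.67 below the other libraries, and the slope of the comparison, from 0.20 to -0.13, is absent without it.

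Sox17 cells differed from control cells in a large share of all genes. In edgeR's quasi-likelihood test with Benjamini-Hochberg adjustment, 4366 of 14804 genes were higher (29.5%) and 3696 were lower (25.0%) at an adjusted p under 0.05, which is what a call means below. Of these, 999 were at least 4-fold higher and 789 at least 4-fold lower. Over all genes tested the median log2 change was 0.05. Without replicate 1 the calls came to 4192 higher and 4085 lower. They kept 3507 of the 4366 higher calls (80.3%) and 3281 of the 3696 lower calls (88.8%), and none turned direction. These fits take the spread from all groups of the study. Pairs of Sox17 libraries with replicate 1 differed by a median of 0.649 and 0.692 in log2 CPM, and pairs of control libraries by 0.0959 to 0.117. A fit of only the 6 libraries compared called 2207 genes higher and 2115 lower. It takes the spread from these libraries alone and has fewer residual degrees of freedom, and why it called fewer genes was not tested. The counts of each list below are to be read against 29.5% higher and 25.0% lower. Every Sox17 library lay above every control library for 4001 of the 14804 genes, and below for 4032. A lack of overlap, given for single genes below, is thus common among all genes.

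**Figure D2:**
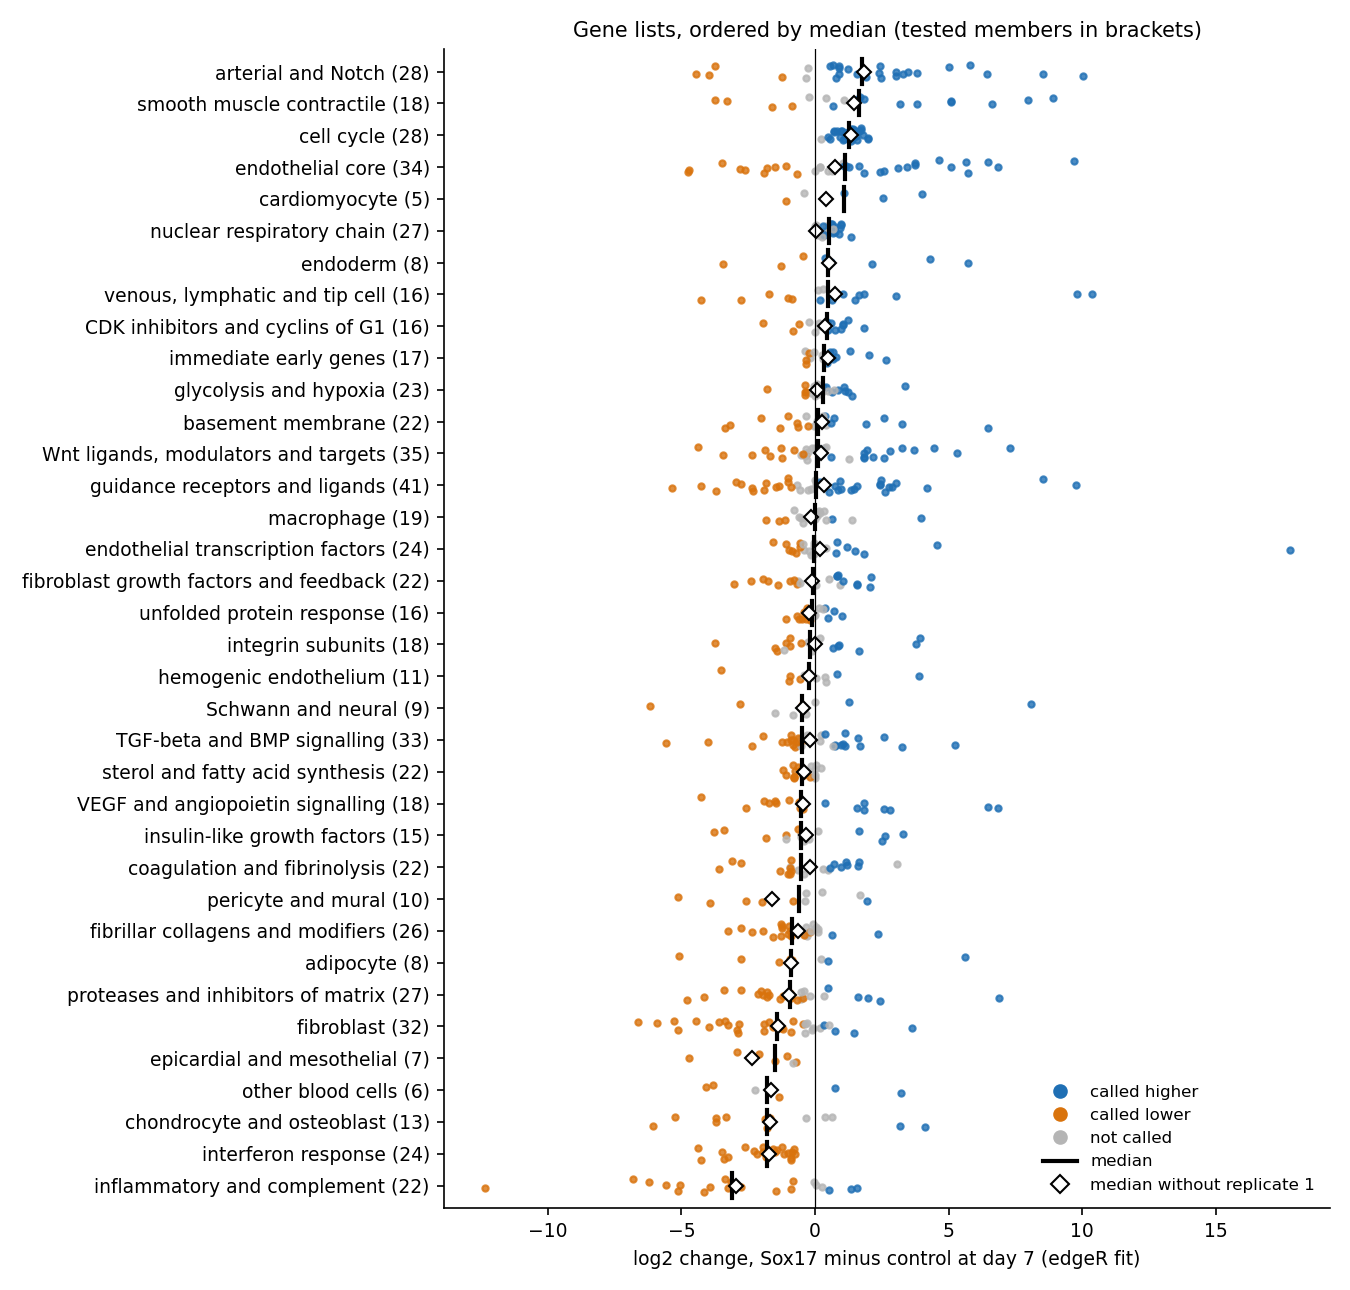
Log2 change of Sox17 against control at day 7 for each tested member of 36 gene lists (points, by call), with the median of each list (bar) and its median without replicate 1 (diamond). Arterial and Notch genes have the highest median, 1.74, and inflammatory and complement genes the lowest, -3.10. The point near 18 is Sox17 itself, at a fitted value against 0 control counts.

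Sox17, whose gene (ENSMUSG00000025902) lies on the minus strand of chromosome 1 at 4490931 to 4497354 in mm10, was at 0 counts in every control library, so that a level of up to 0.0474 CPM over these 3 remains possible. The Sox17 libraries held 616, 1303 and 1322 CPM. Replicate 1 was the lowest, and the groups did not overlap. The mean was at least 22780-fold higher than the control floor. Counts per gene do not separate transcripts of an added copy from endogenous ones. Its relatives moved less. Sox7 read 2.78, 3.09 and 3.21 CPM in control and 6.97, 11.7 and 13.6 CPM with Sox17 (log2 change 1.82, SE 0.23, adjusted p = 1.1e-06), and Sox18 read 0.17, 0.182 and 0 CPM in control and 0.159, 0.0546 and 0 CPM with Sox17 and was not called. Erg, the ETS factor of endothelium, was at or under 0.113 CPM in all 6 libraries.

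The largest rises were genes with few or no counts in control cells. The rule took the 15 called genes with the largest log2 rise, at least 10 CPM with Sox17 and no overlap of libraries, and Sox17 was 1 of them. Of the 15, 5 lie on the X chromosome, as do 492 of all 14804 genes tested. Stretches upstream of 4 of them are shown because these genes rose together from 0 control counts and because SOX factors read a short core motif. They are the first 4 in order of rise, after Sox17, for which RefSeq's start (build GRCm38.p6) is also the outermost start in GENCODE, a condition added after the windows had been read. Each gives the 250 bases before the start, 5′ to 3′ on the strand of the gene, and capitals mark ATTGT and ACAAT, which are searched on both strands and may share bases.
Magix, chrX:7681252-7681501, minus strand: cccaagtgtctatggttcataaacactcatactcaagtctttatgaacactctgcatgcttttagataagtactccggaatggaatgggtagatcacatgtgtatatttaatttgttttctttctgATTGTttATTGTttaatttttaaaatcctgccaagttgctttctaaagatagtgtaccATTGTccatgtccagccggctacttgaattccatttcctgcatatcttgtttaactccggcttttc
Pmch, chr10:88090822-88091071, plus strand: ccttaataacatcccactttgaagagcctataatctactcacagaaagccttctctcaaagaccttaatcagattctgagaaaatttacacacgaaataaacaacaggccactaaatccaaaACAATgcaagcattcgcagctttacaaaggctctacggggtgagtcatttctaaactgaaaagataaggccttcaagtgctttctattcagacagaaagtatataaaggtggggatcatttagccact
Pcsk1n, chrX:7919572-7919821, plus strand: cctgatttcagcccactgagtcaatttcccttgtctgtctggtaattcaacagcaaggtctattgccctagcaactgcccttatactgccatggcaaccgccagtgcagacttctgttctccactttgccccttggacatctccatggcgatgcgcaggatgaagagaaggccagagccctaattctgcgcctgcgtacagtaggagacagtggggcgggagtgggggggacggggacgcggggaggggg
S100g, chrX:162964600-162964849, minus strand: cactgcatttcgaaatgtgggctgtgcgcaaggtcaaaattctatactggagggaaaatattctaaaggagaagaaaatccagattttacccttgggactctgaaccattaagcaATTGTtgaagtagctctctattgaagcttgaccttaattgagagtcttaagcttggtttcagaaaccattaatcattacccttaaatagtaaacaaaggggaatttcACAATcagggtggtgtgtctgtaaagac
The core motif begins 66, 117 and 124 bases before the start of Magix, 128 bases before that of Pmch, and 28 and 135 bases before that of S100g, and these letters are not in the window of Pcsk1n. Of the 15 rises, 13 had a window and 5 of these held the motif. Only the first window listed for a gene was read, although Magix has 2 listed and Cited1 3, and some falls also have more than 1. Among all 27025 genes with a window, 28.3% held it, and among the 11166 of these that were tested, 18.3%. None of the 9 windows found for the 15 largest falls did. Only 75.4% of the genes tested had a window, so no comparison of called with uncalled genes was made.

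Magix encodes a PDZ domain protein and read 151, 80.5 and 76.8 CPM with Sox17 against 0 counts in control, at least 2165-fold higher. Pmch, the precursor of melanin-concentrating hormone, read 90.7, 28.5 and 31.1 CPM, at least 1057-fold higher, or at least 629-fold without replicate 1. Pcsk1n, whose product proSAAS inhibits a prohormone convertase, read 33.5, 10.8 and 8.96 CPM, and S100g, a calcium-binding protein, 30.3, 11.8 and 9.94 CPM. In these 4 genes replicate 1 was the highest, and no control library had a count. Pcsk1n was at least 374-fold and S100g at least 365-fold higher, with bounds of 208 and 229 without replicate 1. Sostdc1, a secreted antagonist of BMP and Wnt, read 84, 126 and 108 CPM against 0 counts, at least 2229-fold higher. Tmem28, a transmembrane protein, read 49.1, 49.5 and 49 CPM against 0 counts, at least 1038-fold higher, and was nearly equal in the 3 libraries.

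Sprr2b, of the small proline-rich proteins of the cornified envelope, read 155, 95.7 and 78.9 CPM (at least 2318-fold). It has close relatives between which reads could be split. The epoxygenase Cyp2j5 read 45, 36.1 and 32.4 CPM (at least 797-fold) and the lens crystallin Crygs 43.1, 13.1 and 11.3 CPM (at least 474-fold, and at least 257-fold without replicate 1). All 3 had 0 control counts. The other rises had 1 to 13 control counts. Sox21, another SOX factor, had 2 control counts and was 3298-fold higher (95% counting interval 913 to 27240). Tacr1, the receptor of substance P, had 1 control count and read 35.6, 30.5 and 30.4 CPM with Sox17, 2062-fold higher (370 to 81480). H2-Aa, a class II histocompatibility chain, had 3 control counts and read 73.9, 50 and 44.5 CPM, 1233-fold higher (422 to 5981). Cited1, a transcriptional coregulator, had 1 control count and read 35.8, 16.4 and 13.4 CPM, 1495-fold higher (268 to 59070). Reln, a secreted guide of neurons that lymphatic endothelium also makes, read 0.113, 0.227 and 0.254 CPM in control and 109, 363 and 368 CPM with Sox17 (log2 change 10.38, SE 0.53, adjusted p = 1.4e-11). Here replicate 1 was the lowest, and all Sox17 libraries lay far above control.

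The 15 largest falls included secreted proteins of complement, inflammation and matrix. A fall here is a level below that of control at day 7, and not a loss over time. C7, a terminal complement component, read 31.8, 23.4 and 22.1 CPM in control and had 0 counts in all Sox17 libraries, at least 921-fold lower. C3, the central complement protein, read 2776, 2325 and 2211 CPM in control and 28.1, 32.5 and 37.1 CPM with Sox17 (log2 change -6.23, SE 0.18, adjusted p = 2.8e-16). The 3 libraries of each group were close to each other and the groups lay far apart. Hp, haptoglobin, fell from 206, 139 and 157 to 0.636, 0.0546 and 0.0756 CPM (log2 change -9.15, and -11.25 without replicate 1). Il33, an alarmin cytokine, fell from 36.7, 38.6 and 31.4 to 0.204, 0.355 and 0.416 CPM (log2 change -6.81). Agt, angiotensinogen, fell from 39.3, 34.4 and 35.1 to 0.318, 0.191 and 0.718 CPM (log2 change -6.55). That none of these overlapped between the groups was a condition of their choice. Htra3, a secreted serine protease, fell from 1123, 1024 and 925 to 15.7, 10.3 and 12.6 CPM (log2 change -6.31, SE 0.17). Spon1, spondin 1 of the matrix, fell from 1008, 908 and 805 to 7.74, 12.4 and 14.3 CPM (log2 change -6.31). At day 3 Htra3 averaged 95.5 CPM in control and 9.74 CPM with Sox17, and Spon1 114 and 6.28 CPM. In these 2 genes the control level was thus far lower at day 3 than at day 7, and the Sox17 level was low on both days. The remaining falls included Lgi2, Lrg1, Serpina3f, Serpina3g, Serpina3m, Abi3bp and Lum, with log2 changes from -8.28 (Lgi2) to -6.22 (Serpina3g). Of these, Lrg1 read -8.82, Abi3bp -6.00 (-7.77 without replicate 3) and Serpina3f -11.02 without replicate 1. The Serpina3 genes are close copies, so their separate values are uncertain.

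Endothelial genes split, with some of the best known markers rising steeply, others staying near 0 and others falling. The endothelial core list held 34 genes, of which 18 rose, 10 fell and 6 were not called, with a median log2 change of 1.11 (0.76 without replicate 1). The summed level of the list was 2179 to 2262 CPM in the control libraries and 2188 to 3248 CPM with Sox17. Cdh5, the cadherin of endothelial junctions, read 0.0567, 0.273 and 0.127 CPM in control and 71.6, 162 and 172 CPM with Sox17 (log2 change 9.70, SE 0.41, adjusted p = 1.2e-13). Kdr, the main VEGF receptor, read 0.907, 1.18 and 1.69 CPM and 65.2, 185 and 193 CPM (log2 change 6.84, SE 0.37, adjusted p = 5.4e-12). In both genes replicate 1 was the lowest Sox17 library and still lay far above every control library. S1pr1, the receptor of sphingosine 1-phosphate, rose from 3.85, 2.46 and 2.54 to 107, 176 and 181 CPM (log2 change 5.73). Icam2, an adhesion molecule of endothelium, rose from 0.737, 0.364 and 0.761 to 47.4, 22.9 and 21.9 CPM (log2 change 5.63). Mcam, an adhesion molecule of endothelium and mural cells, rose from 2.21, 1.77 and 2.54 to 49.2, 54.4 and 59.3 CPM (log2 change 4.64). As these are bulk samples, more cells of a type and more RNA per cell cannot be told apart, here or below.

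Other defining endothelial genes rose to low levels or not at all. Pecam1 read 0.794, 1.18 and 0.804 CPM in control and 2.66, 3 and 3.14 CPM with Sox17 (log2 change 1.64, adjusted p = 6.1e-07). Emcn, endomucin, read 0.34, 0.318 and 0.423 CPM and 4.54, 2.18 and 2.76 CPM (log2 change 3.12). Tie1 had 3 control counts and read 3.84, 6.11 and 4.04 CPM, 98.4-fold higher (95% counting interval 33.5 to 479). These 3 genes were called with and without replicate 1. Cldn5, the claudin of endothelial tight junctions, had 0 counts in all 6 libraries. Of the defining markers of the labelled cell type, Cldn5 was thus at 0, Erg near 0 and Pecam1 low. Vwf, the adhesive protein of endothelial granules, read 1.3, 1.64 and 1.9 CPM and 2.36, 1.83 and 2.76 CPM and was not called (adjusted p = 0.18). Egfl7 was called (log2 change 1.08), and without replicate 1 it was not (adjusted p = 0.1).

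The falls included genes that were already expressed in the control libraries. Cd34, a sialomucin of endothelium and of fibroblasts, read 81.6, 84.4 and 85.7 CPM in control and 3.45, 3.27 and 2.91 CPM with Sox17 (log2 change -4.70, SE 0.16). Flt1, a VEGF receptor that binds the ligand without strong signalling, read 24.1, 24.6 and 27.9 CPM and 3.38, 8.81 and 8.65 CPM (log2 change -1.89). Tek, the angiopoietin receptor, read 27.3, 23.5 and 22.7 CPM and 5.9, 8.73 and 11.4 CPM (log2 change -1.50). In all 3 genes every Sox17 library lay below every control library. Selp fell by 4.74, Plvap by 3.49 and Ramp2 by 2.61 on the log2 scale, and Eng fell by 0.66.

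Most genes of arteries and of Notch signalling rose. Of 28 tested genes 22 rose, 4 fell and 2 were not called (median log2 change 1.74), and without replicate 1 22 rose and 5 fell. Their summed level was 2174 to 2349 CPM in the control libraries and 4869 to 6178 CPM with Sox17. Gja5, connexin 40 of arterial endothelium, read 0.227, 0 and 0 CPM in control and 84.8, 61 and 68.1 CPM with Sox17 (log2 change 10.03, SE 0.40, adjusted p = 3.8e-14). Sema3g, an arterial semaphorin, read 0.0567, 0.182 and 0.0846 CPM and 38.6, 40.2 and 47.9 CPM (log2 change 8.51). Hey1, a Notch target, read 0.567, 0.545 and 0.423 CPM and 47.6, 42.5 and 42.8 CPM (log2 change 6.44, SE 0.22). Bmx, a kinase of arterial endothelium, read 10.5, 11 and 10.1 CPM and 337, 348 and 336 CPM (log2 change 5.02, SE 0.11). In these 4 genes replicate 1 lay close to the other Sox17 libraries. The ligand Jag2 rose from 0, 0.273 and 0.169 to 9.33, 7.88 and 10.1 CPM (log2 change 5.81). Efnb2, the ephrin of arterial identity, rose from 18.4, 19.8 and 17.2 to 53.7, 126 and 131 CPM (log2 change 2.48). Notch4 rose from 50.4, 60.1 and 61.5 to 214, 218 and 214 CPM (log2 change 1.91), and Nrp1 by 1.58 on the log2 scale. Dll4, the arterial Notch ligand, was called (log2 change 3.03) but read only 0.726, 0.627 and 0.68 CPM with Sox17. The fallers were the chemokine Cxcl12, from 479.5, 445 and 424 to 20.3, 16.7 and 24.6 CPM (log2 change -4.45), the ligand Dll1 (log2 change -3.96), the BMP receptor Acvrl1 (log2 change -1.22) and Tmem100 (log2 change -3.76). Against so few control counts some log2 changes hang on 1 control library. Leaving out control replicate 1 moved Gja5 to 13.85. Leaving out control replicate 2 moved Cdh5 to 10.38, Jag2 to 6.49 and Dll4 to 3.69, and all stayed called.

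**Figure D3:**
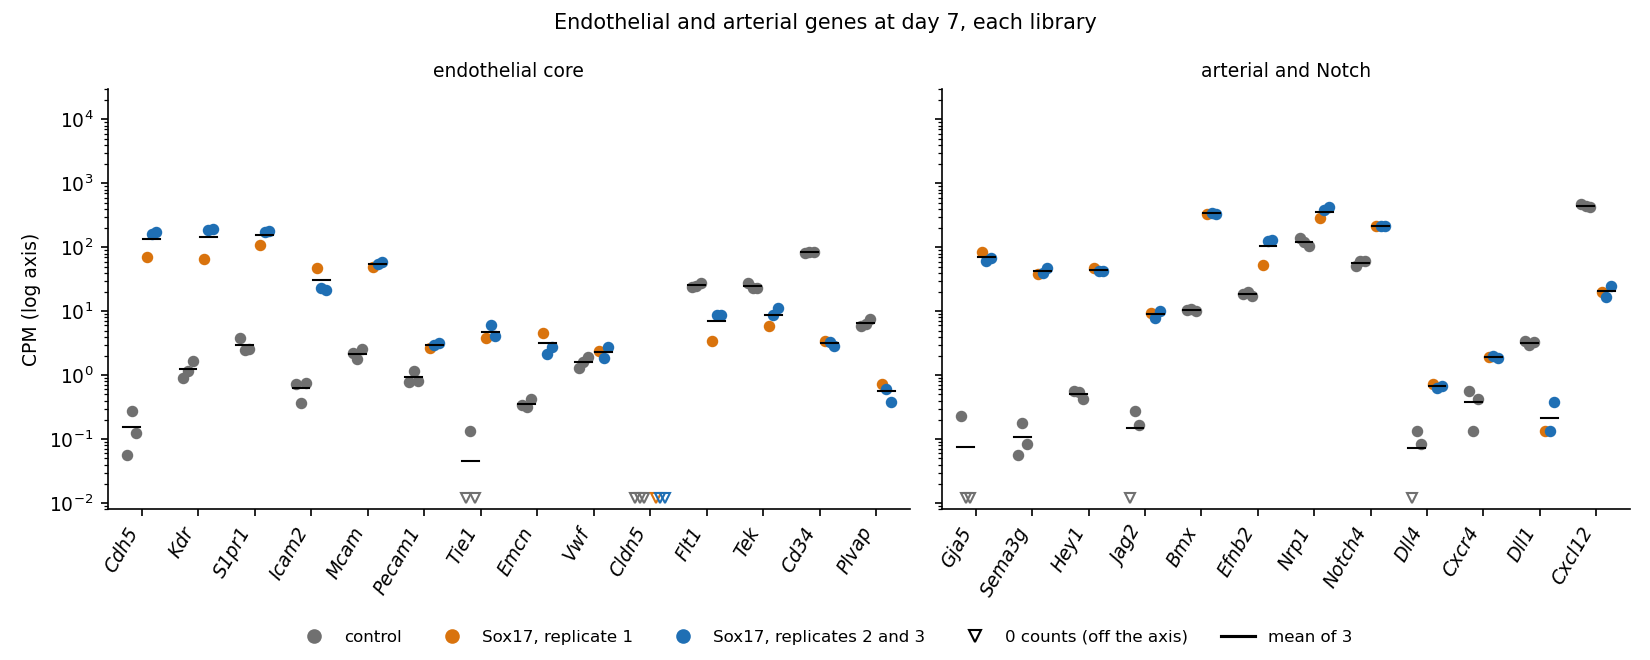
CPM on a log axis of endothelial core genes (left) and arterial and Notch genes (right) in each control library (grey), Sox17 replicate 1 (orange) and Sox17 replicates 2 and 3 (blue) at day 7, with the mean of 3 as a bar and libraries at 0 counts as triangles. Cdh5, Kdr and Gja5 lie far above control, Pecam1 and Emcn reach 2 to 5 CPM, Cldn5 is at 0 counts, and Flt1, Tek and Cd34 lie below control.

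Among genes of veins, lymphatics and tip cells 9 of 16 rose and 5 fell (median 0.47). Pdgfb, the ligand by which endothelium recruits mural cells, read 0, 0.136 and 0.0423 CPM in control and 68.6, 50.5 and 61.6 CPM with Sox17 (log2 change 9.79, SE 0.27). Without control replicate 2 its log2 change was 11.02. Flt4, the receptor of VEGF-C, rose from 37.2, 43.3 and 39.3 to 64.7, 189 and 169 CPM (log2 change 1.82). Nr2f2, the factor of venous identity, fell from 40.5, 37.9 and 39.8 to 16.4, 23.4 and 24.9 CPM (log2 change -0.87), Nrp2 from 146, 143 and 140.2 to 3.47, 8.7 and 10.1 CPM (log2 change -4.28), and Lyve1 by 2.79 on the log2 scale. Of 24 endothelial transcription factors, Sox17 among them, 7 rose and 7 fell (median -0.04). Bcl6b rose from 0.567, 0.227 and 0.0846 to 8.06, 5.21 and 6.54 CPM (log2 change 4.58, and 5.38 without control replicate 1), Gata3 by 1.51 and Klf2, induced by flow, by 1.21 on the log2 scale. Fli1, an ETS factor, fell by 1.08, Foxc1 by 1.55 and Lmo2 by 0.96. Ets1 read 120.3, 115 and 125 CPM in control and 72.4, 139.6 and 147 CPM with Sox17 and was called only without replicate 1 (log2 change 0.26). Of the 18 genes of VEGF and angiopoietin signalling 8 rose and 10 fell. The ligand Pgf rose from 2.5, 1.59 and 3.09 to 26.7, 12.3 and 11.1 CPM and the phosphatase Ptprb from 36.5, 35.9 and 33.5 to 80.3, 241 and 314 CPM, while Vegfc fell by 1.46 and Angpt1 by 2.60 on the log2 scale.

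Most fibroblast genes fell. Of 32 markers 21 fell, 4 rose and 7 were not called (median log2 change -1.43), and without replicate 1 22 fell and 4 rose. Their summed level was 59034 to 62987 CPM in the control libraries and 21275 to 27285 CPM with Sox17. Col1a1, a chain of type I collagen, read 7861, 7971 and 7497 CPM in control and 3270, 4705 and 5087 CPM with Sox17 (log2 change -0.84, SE 0.11, adjusted p = 2.5e-06). Col3a1 read 5003, 4737 and 4369 CPM and 344, 560.2 and 591 CPM (log2 change -3.24). Pdgfra, the receptor that marks fibroblasts, read 850.3, 813 and 739 CPM and 38, 89.3 and 107 CPM (log2 change -3.36). The groups did not overlap in these 3 genes, and Col1a1 kept the highest level of the 3 with Sox17. Tcf21, a factor of cardiac fibroblasts, fell from 356, 341 and 302 to 42.9, 49.9 and 44.4 CPM (log2 change -2.87). The small proteoglycan decorin, Dcn, fell from 1387, 1216 and 1196 to 45, 63.5 and 63 CPM (log2 change -4.47). Gsn, gelsolin, fell from 12440, 11150 and 11210 to 417, 291 and 287 CPM (log2 change -5.13). Dpt, Lum and Islr, all secreted, fell by 5.89, 6.61 and 5.27 on the log2 scale. The 4 that rose were Vim (log2 change 0.74), Mfap5 (1.48), Cthrc1 (0.34) and Pi16 (3.64, and 2.90 without replicate 1). Postn, periostin, read 1568, 1582 and 1651 CPM and 1024, 1770 and 1820 CPM and was not called.

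Many genes of the collagen matrix and its proteases were lower as well. Of 26 fibrillar collagens and their modifying enzymes 16 fell and 2 rose (median -0.86), and without replicate 1 16 and 3. Adamts2, which trims procollagen, fell from 1657, 1591 and 1510 to 231, 225 and 249 CPM (log2 change -2.75), and Col12a1 rose from 71.2, 66.7 and 74.9 to 134, 443 and 517 CPM (log2 change 2.36). Of 27 matrix proteases and their inhibitors 17 fell and 5 rose (median -0.93). The gelatinase Mmp2 fell from 3987, 3728 and 3462 to 347, 364 and 339 CPM (log2 change -3.41) and the stromelysin Mmp3 from 1716, 1631 and 1624 to 125, 79.2 and 79 CPM (log2 change -4.13). The collagenase Mmp13 went the other way, from 0.283, 0.409 and 0.804 to 53.4, 71 and 58.6 CPM (log2 change 6.87). In the basement membrane list 7 of 22 rose and 8 fell, and without replicate 1 11 rose and 8 fell. Lama1, a laminin chain, rose from 1.3, 0.955 and 1.99 to 89.7, 135 and 156 CPM (log2 change 6.47) and Col4a6 from 46.4, 40.3 and 42.7 to 125, 329 and 328 CPM, while Col4a3 and Col4a4 fell by 3.17 and 3.37 on the log2 scale.

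Most genes of smooth muscle contraction rose. Of 18 tested 11 rose, 4 fell and 3 were not called (median 1.64), and without replicate 1 12 rose and 5 fell. Their summed level was 1438 to 1488 CPM in the control libraries and 5361 to 8027 CPM with Sox17. Acta2, smooth muscle actin, read 70.5, 58.3 and 65.5 CPM in control and 2988, 1804 and 1806 CPM with Sox17 (log2 change 5.09, SE 0.21, adjusted p = 7.6e-14). Tagln, transgelin, read 24.3, 24.2 and 30.2 CPM and 1350, 681 and 666 CPM (log2 change 5.10). Cnn1, calponin, read 0.113, 0.182 and 0.0846 CPM and 93.4, 48.1 and 44.8 CPM (log2 change 8.89). Replicate 1 was the highest in each and the other Sox17 libraries also lay far above control. Myl9, a myosin light chain, rose from 4.93, 4.27 and 4.74 to 785, 309 and 291 CPM (log2 change 6.63, and 6.01 without replicate 1), and Myh11, the smooth muscle myosin heavy chain, from 0.113, 0.273 and 0.254 to 1.54, 2.29 and 2.23 CPM. Myocd, the coactivator of smooth muscle genes, read 0.624, 0.5 and 0.254 CPM and 0.272, 1.28 and 1.4 CPM and was called only without replicate 1 (log2 change 1.57). Des, desmin, fell by 1.63 and Itga8 by 3.75 on the log2 scale. Of 10 markers of pericytes and mural cells 5 fell and 1 rose (median -0.59), and without replicate 1 5 fell and 2 rose (median -1.61). Pdgfrb, the receptor of Pdgfb, fell from 855, 826 and 776 to 166, 217 and 241 CPM (log2 change -1.98) and Anpep by 5.12, while Rgs5 rose from 2.21, 1.73 and 3 to 6.79, 9.77 and 10.4 CPM.

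**Figure D4:**
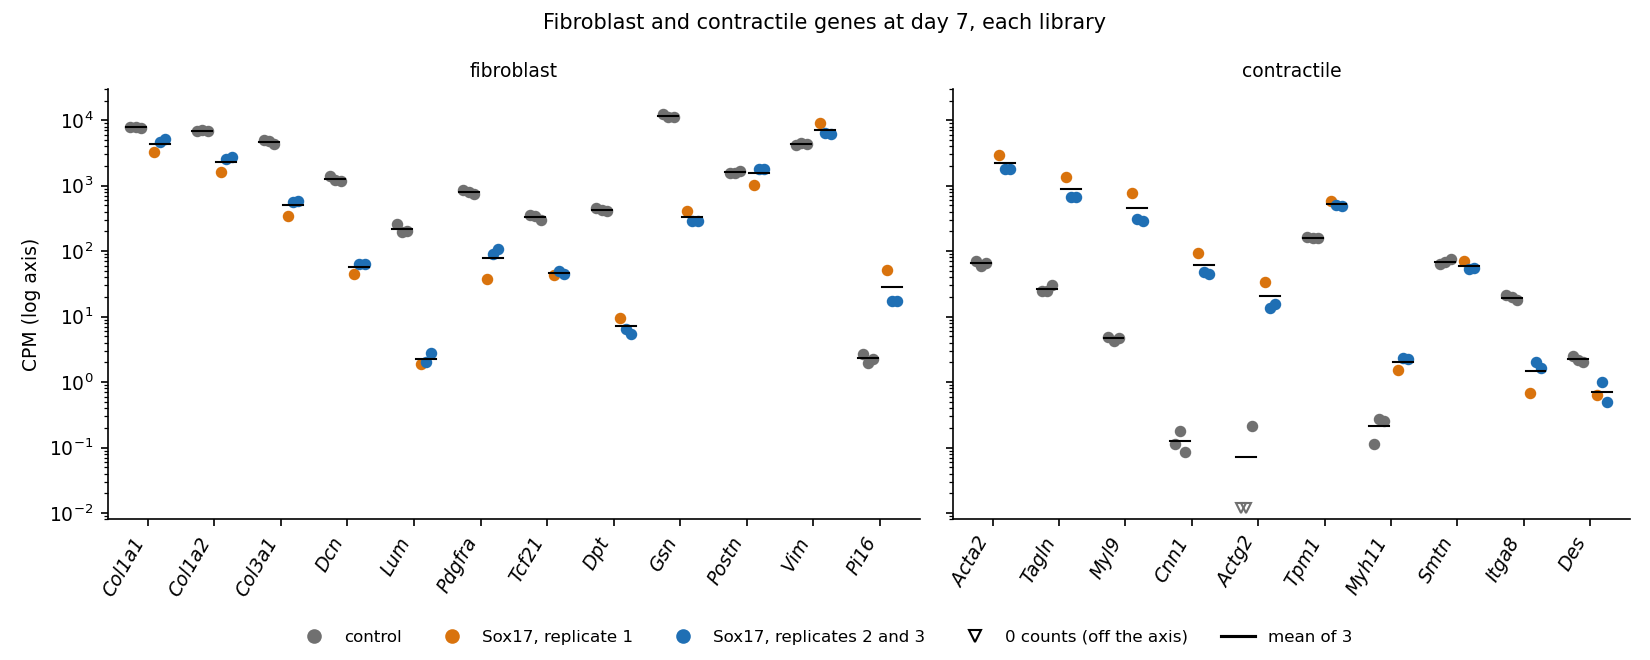
CPM on a log axis of fibroblast genes (left) and contractile genes (right) in each control library (grey), Sox17 replicate 1 (orange) and Sox17 replicates 2 and 3 (blue) at day 7, with the mean of 3 as a bar. Dcn, Lum, Pdgfra and Gsn lie below control, Col1a1 less so, and Acta2, Tagln, Myl9 and Cnn1 lie above control with replicate 1 the highest.

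All 24 interferon response genes fell (median -1.81), and 23 of them did so without replicate 1, where Cxcl10 was not called (adjusted p = 0.067). These genes are switched on by interferon through STAT and IRF factors and act against viruses. Irf7, the factor that amplifies the response, read 816, 828 and 779 CPM in control and 138, 50.1 and 65.8 CPM with Sox17 (log2 change -3.26, SE 0.36, adjusted p = 2.4e-07). Ifit1 read 375, 376 and 329.9 CPM and 87.1, 71.4 and 81.9 CPM (log2 change -2.17), and Oas3 59.1, 65.2 and 55.1 CPM and 2.81, 2.46 and 3.44 CPM (log2 change -4.37). No library overlapped in these 3 genes. Isg15 fell by 1.01 and Ifi44 by 4.25 on the log2 scale. The summed level of the list was 5376 to 5884 CPM in the control libraries and 1426 to 2245 CPM with Sox17.

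Genes of inflammation and complement had the lowest median of the lists, -3.10, with 16 of 22 lower and 3 higher. Beside C3, C7 and Il33, C4b fell from 474, 414 and 377 to 11.5, 5.73 and 9.14 CPM (log2 change -5.58) and Cfb from 99.1, 86.9 and 78.3 to 4.04, 0.655 and 2.8 CPM (log2 change -5.13, and -5.77 without replicate 1). Lcn2, lipocalin 2, fell by 5.04 (log2 change -5.89 without replicate 1) and Saa3, serum amyloid A3, by 4.16 on the log2 scale. Among members without a call, Il6 read 3.29, 3.41 and 3.51 CPM and 2.84, 3.98 and 3.63 CPM and Ccl2 52.2, 52.8 and 61.1 CPM and 70.1, 62.3 and 64.3 CPM, and neither was called. Ptgs2, cyclooxygenase 2, rose from 8.28, 7.55 and 7.83 to 9.47, 24.1 and 27.2 CPM (log2 change 1.36).

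In the Wnt list 14 of 35 genes rose and 10 fell (median 0.12). The ligand Wnt5a read 28.5, 26.6 and 25.1 CPM in control and 112, 292 and 354 CPM with Sox17 (log2 change 3.24, SE 0.30). Axin2, a target of beta-catenin, read 0.964, 0.909 and 0.508 CPM and 2.68, 6.9 and 6.95 CPM (log2 change 2.80). Replicate 1 was the lowest Sox17 library in both and the groups did not overlap. The secreted inhibitors Dkk3 and Sfrp1 fell from 944, 959 and 881 to 37.1, 47.4 and 48.1 CPM (log2 change -4.39) and from 808, 713 and 644 to 56.2, 62 and 80.8 CPM (log2 change -3.44). Sp5, another Wnt target, had 0 control counts and read 0.931, 0.764 and 0.567 CPM, at least 15.9-fold higher, and Lef1 was not called.

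TGF-beta and BMP genes were divided, with 12 of 33 higher and 15 lower. Inhbb, an activin subunit, fell from 316, 313 and 277 to 5.2, 6.85 and 7.22 CPM (log2 change -5.56). Fst, which binds activin, rose from 19.3, 16.5 and 16.2 to 143, 166 and 191 CPM (log2 change 3.27), and the BMP antagonist Nog from 0.113, 0.136 and 0.211 to 6.56, 6.52 and 5.25 CPM. Tgfb2 rose from 31.5, 30.5 and 30.4 to 138, 194 and 219.6 CPM (log2 change 2.58). The BMP antagonist Grem1 fell from 8.62, 6 and 6.3 to 0.272, 0.464 and 0.605 CPM. Among 15 genes of insulin-like growth factors 4 rose and 5 fell. Igf1 rose from 65, 51.7 and 48.4 to 298, 350.4 and 372 CPM (log2 change 2.63) and its binding protein Igfbp3 from 163, 146 and 129 to 1134, 1620 and 1541 CPM (log2 change 3.29), while Igfbp4 and Igfbp5 fell by 3.41 and 3.79. Without Sox17 replicate 3 the log2 change of Igfbp5 was -4.39. Of 22 genes of fibroblast growth factors and their feedback 8 rose and 8 fell, with Etv4 higher by 2.06 and Fgf7 and Spry1 lower by 1.94 and 1.77.

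Guidance receptors and ligands held 20 of 41 genes higher and 14 lower. Ephb1, a receptor of ephrin-B ligands, had 3 control counts and read 45.4, 44.1 and 46.2 CPM with Sox17, 952-fold higher (95% counting interval 326 to 4619). Its 3 Sox17 libraries were nearly equal. Slit2 rose from 91.2, 82.7 and 79.6 to 225, 742 and 883 CPM (log2 change 2.87) and its receptor Robo2 from 2.21, 1.32 and 1.86 to 12.8, 42.7 and 42.5 CPM (log2 change 4.19). The netrin receptor Unc5c fell from 13.2, 12.4 and 8.71 to 0.0227, 0.382 and 0.491 CPM (log2 change -5.36, and -4.71 without replicate 1). Of 18 integrin subunits 6 rose and 7 fell, Itgb8 and Itga7 rising by 3.92 and 3.76 and Itgb5 falling by 1.48. Of 17 immediate early genes 8 rose and 3 fell, and without replicate 1 9 and 2. Jun rose from 38, 44.5 and 43.5 to 125, 187 and 196 CPM (log2 change 2.01), and Ier2, at 344, 123 and 130.1 CPM with Sox17, was called but lost its call without that group's replicate 1 and also without control replicate 1 or 2. Of 22 genes of coagulation and fibrinolysis 7 rose and 9 fell. Gas6, a ligand of TAM receptors, fell from 5512, 5030 and 4773 to 478, 394 and 384 CPM (log2 change -3.61).

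Cell cycle genes were higher at day 7 almost without exception. Of 28 tested 27 rose, none fell and Bub1b was not called (median 1.26), and 27 rose without replicate 1. Their summed level was 422 to 507 CPM in the control libraries and 1004 to 1108 CPM with Sox17. Mki67, a marker of cycling cells, read 11.5, 15.1 and 18.4 CPM in control and 39.6, 47.1 and 54.1 CPM with Sox17 (log2 change 1.64, SE 0.19, adjusted p = 3.4e-07). Mcm5, of the replicative helicase, read 8.33, 9.64 and 10.2 CPM and 45.4, 31.8 and 34.4 CPM (log2 change 1.98), and Ccna2, cyclin A2, 10.2, 11.8 and 14.2 CPM and 36.8, 40.2 and 43.5 CPM (log2 change 1.73). The groups did not overlap in these 3 genes. Among 16 inhibitors of cyclin-dependent kinases and cyclins of G1 9 rose and 3 fell. Ccnd2 rose by 1.23 and Cdkn1a, p21, by 0.60 on the log2 scale, and Cdkn1c, p57, fell from 72.3, 68.8 and 74.5 to 27.6, 12.9 and 14.6 CPM (log2 change -1.96).

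Sterol and fatty acid genes fell, and the rise of respiratory chain genes was mostly lost without replicate 1. Of 22 genes of sterol and fatty acid synthesis 15 fell and none rose (median -0.50), with Fasn, fatty acid synthase, from 739.9, 757 and 689.8 to 282, 361 and 384 CPM (log2 change -1.09) and Acaca, acetyl-CoA carboxylase, lower by 1.21. Sqle, of cholesterol synthesis, was not called. Of 23 glycolysis and hypoxia genes 9 rose and 5 fell, and without replicate 1 6 and 6. The glucose transporter Slc2a3 rose from 10.9, 9.14 and 9.35 to 77.2, 112 and 111 CPM (log2 change 3.35). Of 27 nuclear genes of the respiratory chain 14 rose and none fell (median 0.54), but without replicate 1 6 rose and 1 fell (median 0.05). Cox4i1 read 244, 241 and 239.9 CPM in control and 841, 265 and 234 CPM with Sox17, and without replicate 1 it was not called (log2 change 0.05). Of 16 genes of the unfolded protein response 4 rose and 8 fell, and without replicate 1 3 and 10.

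Markers of other cell types that a heart culture could hold were read in the same fit. Of 19 macrophage genes 14 were not called, 2 were higher and 3 lower (1 and 3 without replicate 1), and the summed level was 184 to 237 CPM in the control libraries and 181 to 286 CPM with Sox17. Mrc1 fell from 13.7, 10.4 and 11.7 to 1.86, 4.34 and 3.78 CPM. In the list of other blood cells Cd3e, Nkg7, S100a9 and Gp9 were among those at 0 counts in all 6 libraries, 2 of the 6 tested rose and 3 fell (1 and 2 without replicate 1), and the summed level was 5.73 to 6.41 CPM in the control libraries and 4.06 to 6.17 CPM with Sox17. Of 5 tested cardiomyocyte genes 3 rose and 1 fell (2 and 1 without replicate 1), with a summed level of 76.1 to 95.9 CPM in the control libraries and 26 to 77.9 CPM with Sox17. Most of that sum was Tnnt2, the gene that fell, at a mean of 83 CPM in control and 39.4 CPM with Sox17. Its log2 change was -1.07, and -1.88 without replicate 1. Of 7 epicardial and mesothelial genes 6 fell and none rose (median -1.51, and -2.37 without replicate 1), Aldh1a2 from 27.6, 26 and 22.7 to 0.885, 0.846 and 1.17 CPM, with a summed level of 39.9 to 44.3 CPM in the control libraries and 5.03 to 7.2 CPM with Sox17. In addition 8 of 13 chondrocyte and osteoblast genes fell and 2 rose (7 and 3 without replicate 1), Sox9 from 186, 187 and 173 to 10.3, 14.5 and 17.4 CPM. Sox6, of the same list, rose from 6.01, 5.09 and 4.57 to 40.1, 112 and 117 CPM (log2 change 4.10). Of 8 adipocyte genes 5 fell and 2 rose, and Cidec and Lep were at 0 counts in all 6 libraries. Plin4, of lipid droplets, fell by 5.08 and Lpl by 2.78 on the log2 scale. Apoe, an apolipoprotein, read 915, 803 and 875 CPM in control and 868, 314 and 252 CPM with Sox17, replicate 1 alone lying within the control range. Its log2 change was -0.86 (adjusted p = 0.017), and -1.61 without replicate 1 (adjusted p = 5.3e-09), while without replicate 2 or 3 it was not called. Of the Schwann and neural genes 2 of 9 rose and 3 fell. Cdh19 fell from 46.3, 40.8 and 37.5 to 0.182, 0.709 and 0.945 CPM (log2 change -6.16). For endoderm, where Sox17 acts in the embryo, 10 of 18 markers did not pass the filter, Foxa1, Foxa2, Hnf4a, Afp and Ttr among them, and Foxa3 and Cldn6 were at 0 counts in all 6 libraries. Of the 8 tested 5 rose and 3 fell, and without replicate 1 4 rose and 2 fell. Prdm1 reached 0.658, 2.51 and 2.76 CPM, and Gata6 fell from 100.1, 100.4 and 87.9 to 20.9, 47.4 and 51 CPM. Of 11 hemogenic genes Runx1 rose from 17.8, 17.4 and 16.6 to 23.2, 29.3 and 40.3 CPM (log2 change 0.84), and 2 in all rose and 4 fell, and Gfi1b and Gata1 were at 0 counts in all 6 libraries. The part of any such cells in the results above was not tested.

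The day 7 difference was then set against that of day 3, each with its own controls, as a test of the change between the days. The change was called higher for 1127 genes (7.61%) and lower for 986 (6.66%), or 1429 and 1387 without replicate 1 of Sox17 at day 7. For cell cycle genes it was called higher for 27 of 28. Mki67 read 78.8 ± 2.53 CPM in control and 69.1 ± 10 CPM with Sox17 at day 3 (mean ± SD, n = 3), and 15 ± 3.43 and 46.9 ± 7.24 CPM at day 7. The means of both conditions were lower at day 7 than at day 3, that of control by more. Of the contractile genes 9 of 18 had a higher change and none a lower one. The log2 change of Acta2 was 2.33 at day 3 and 5.09 at day 7, and that of Cnn1 4.64 and 8.89. Acta2 averaged 282 CPM in control and 1420 CPM with Sox17 at day 3, and 64.8 and 2199 CPM at day 7. Tagln averaged 232 and 852 CPM at day 3, and 26.2 and 899 CPM at day 7. Of the inflammatory and complement genes 14 of 22 had a lower change and 1 a higher one. The log2 change of C3 was -3.52 at day 3 and -6.23 at day 7. C3 averaged 289 CPM in control and 25.1 CPM with Sox17 at day 3, and 2438 and 32.6 CPM at day 7. Of the fibroblast genes 12 of 32 had a lower change and 4 a higher one, that of Dpt going from -2.57 to -5.89. Dpt averaged 56.3 CPM in control and 9.49 CPM with Sox17 at day 3, and 426 and 7.12 CPM at day 7. In both C3 and Dpt the control mean differed more between the days than the Sox17 mean. Among endothelial core genes 4 of 34 had a higher change and 11 a lower one. Kdr went from 8.75 to 6.84 (change -1.91, adjusted p = 0.02), Thbd from 3.06 to 1.14, and Mcam from 2.64 to 4.64. Among arterial and Notch genes 8 had a higher and 6 a lower change. For interferon genes the change was called lower for 1 of 24, Irf7, and higher for none. The log2 change of Irf7 was -1.72 at day 3 and -3.26 at day 7 (adjusted p of the change = 0.037).

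**Figure D5:**
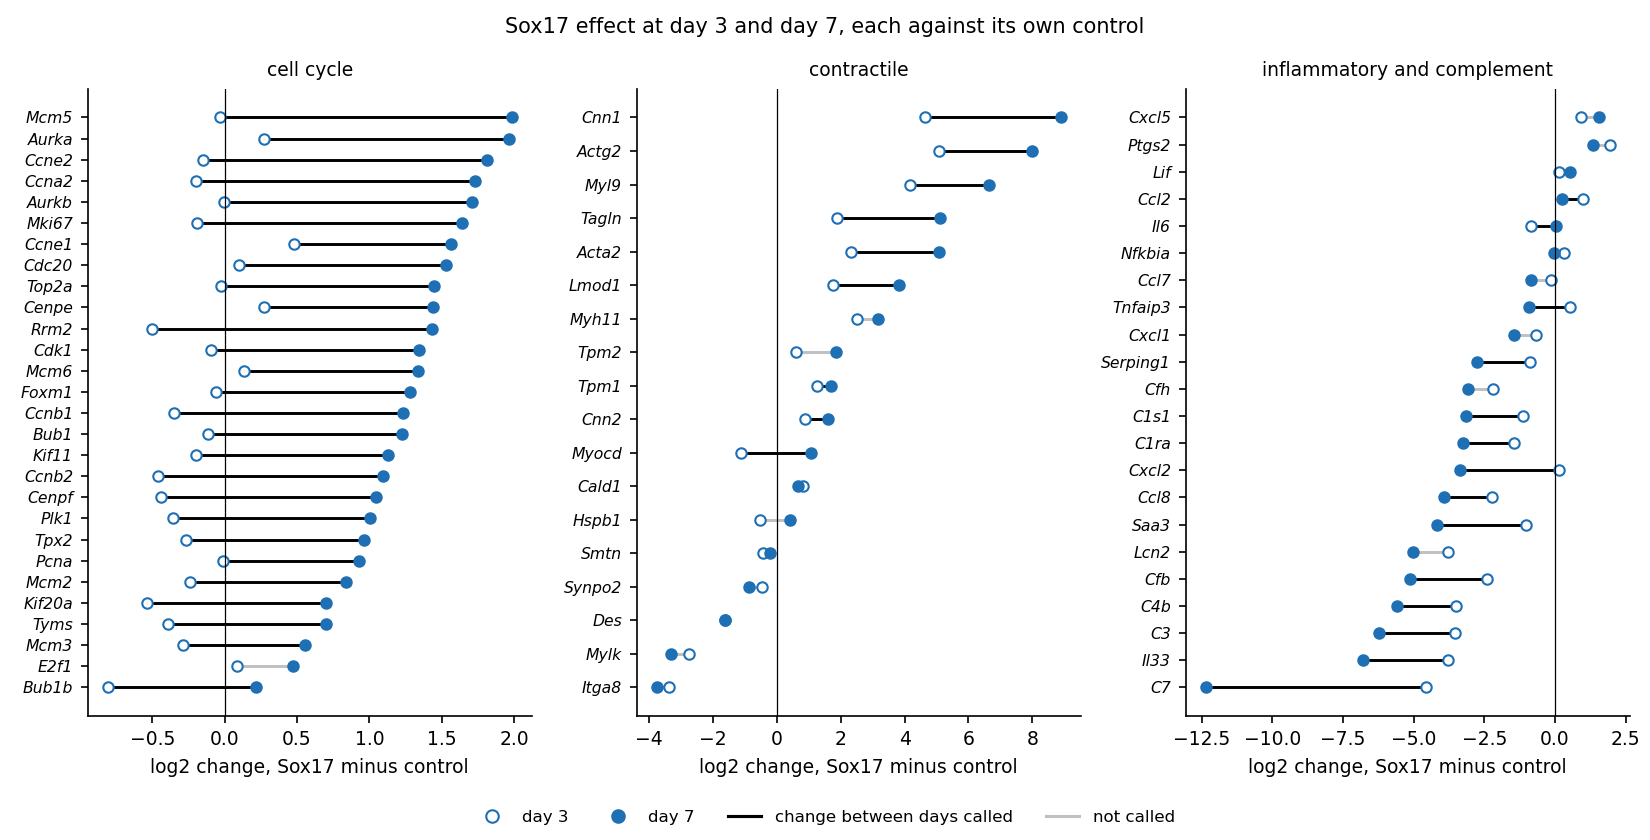
Log2 change of Sox17 against its own control at day 3 (open) and day 7 (filled) for cell cycle, contractile, and inflammatory and complement genes, joined by a dark line where the change between the days was called. Of 28 cell cycle genes 27 have a called change, from near 0 at day 3 to above 0 at day 7. C7, at 0 counts with Sox17 at day 7, is drawn at its fitted value.

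SEG at day 7 carried Sox17 at 699 ± 206 CPM and Erg at 961 ± 109 CPM, and was compared directly with Sox17 at day 7. SEG was called higher for 2776 genes (18.8%) and lower for 3134 (21.2%). With the replicate number as a block within these groups the calls came to 1920 higher and 1993 lower, and without replicate 1 of Sox17 to 3390 and 3288. Of the 34 endothelial core genes 26 were higher with SEG and 2 lower. Pecam1 read 200.2 ± 14.9 CPM with SEG and 2.93 ± 0.248 CPM with Sox17 (mean ± SD, n = 3). Tie1 read 533 ± 7.83 and 4.66 ± 1.26 CPM, and Dll4 265 ± 3.38 and 0.678 ± 0.0495 CPM (adjusted p = 3.7e-14). Cldn5 was at 0 counts with Sox17 and read 6.36 ± 1.3 CPM with SEG. Kdr did not pass the test (log2 difference 0.67, adjusted p = 0.051). It read 235 ± 45.2 CPM with SEG and 65.2, 185 and 193 CPM in the Sox17 libraries, replicate 1 being the lowest. The list counts of this comparison include that library. Cell cycle genes were lower with SEG in 26 of 28 and interferon genes higher in 16 of 24. Contractile genes were lower in 11 of 18 and higher in 5. Some genes high with Sox17 were near 0 with SEG. Penk, the precursor of enkephalins, read 438 ± 139.9 CPM with Sox17 and 0.1 ± 0.0618 CPM with SEG (log2 difference -12.03), and Gdf10, of the BMP family, 95.4 ± 11.2 and 0.0682 ± 0.0626 CPM. Pmch was at 0 counts with SEG, Ephb1 read 0.0456 ± 0.048 CPM and Crygs 0.0272 ± 0.0236 CPM. Havcr1, Ocln and Gpr21, with 1 count each over the 3 Sox17 libraries, read 17.6 ± 1.31, 16.8 ± 2.63 and 11 ± 3.36 CPM with SEG. This comparison shares the Sox17 libraries with the one against control.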

How the data were processed

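RNA of mouse heart cells was sequenced as mRNA libraries, per the labels' protocols, 24 in all, and the authors deposited 1 table of whole-number counts per gene, not normalized. Per the submitters' processing notes, Salmon, DESeq2 and mm10 were used. For the tools' versions, the annotation release, strand setting and rounding, the sources used here give nothing. Of 35727 identifiers 35422 had a symbol. Reads of near-identical genes can be split between copies.

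From these counts, genes were kept by filterByExpr (minimum count 10; 14804 genes) and fitted with edgeR 4.0.16 (R 4.3.3, limma 3.58.1; Python 3.11.15, pandas 2.3.3 and matplotlib 3.10.9 for tables and plots) as group means over all 24 libraries, with TMM scaling, the quasi-likelihood test and Benjamini-Hochberg adjustment over all genes (threshold 0.05). CPM are relative to the scaled library size. Fold changes against 0 counts are bounds at 3 counts over the 3 libraries, and those against 1 to 3 counts carry a 95% exact binomial interval, which covers counting error only. The totals of the control libraries at day 7, 19183807 to 24782231 counts, put that floor at 0.0474 CPM there, and the Sox17 libraries at day 7 held 24090381 to 44586227 counts. DESeq2 1.42.0 and the other alternatives are given in the closing section. On simulated data for Sox17 against control (14804 genes) the test found 70 of 100 genes given a 2-fold change and 94 of 100 given a 4-fold change, with 10 false calls. Apart from these genes the simulated libraries shared 1 profile, and none was outlying. The data differ in both respects, so these figures cannot be carried over to them.

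Named genes were the 15 largest rises and 15 largest falls (called with and without replicate 1 of Sox17, at least 10 CPM in the higher group, no overlap, no predicted names), the best known members of each list with at most 5 of its called genes at 5 CPM or more, and 5 genes a direction in the other contrasts. A few genes that the rule named are not reported here. The members and lists were chosen with earlier results of these data known. Replicate numbers come from the labels, which do not say what they mark. Deviations from the group means correlated for same-numbered libraries of SEG and Sox17 (r = 0.69, 0.40 and 0.44), so blocked values stand beside that comparison, although SEG 2 with Sox17 3 gave 0.42. They did not for Sox17 and control (-0.08, 0.02 and -0.13). Promoter windows are RefSeq's, the first listed for each gene.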

Additional observations from a re-analysis of the deposited data

Results flagged for a closer look

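The difference between Sox17 and control changed between day 3 and day 7 by a test of the change itself (edgeR, adjusted p under 0.05) for the genes named here, 5 a direction, chosen as the largest. Each value is the log2 change at day 7 minus that at day 3. Prokr2, a prokineticin receptor, changed by 6.36, with mean CPM of 1.56 in control and 11.3 with Sox17 at day 3 and 0.0564 and 40.6 at day 7, and by 10.16 without control replicate 3 of day 7. Sv2b, a synaptic vesicle protein, changed by 5.89, with 0.334 and 3.61 CPM at day 3 and 0.202 and 125 CPM at day 7. Cnn1 changed by 4.25, with 1.14 and 28.7 CPM at day 3 and 0.127 and 62.1 CPM at day 7. Crabp1, which binds retinoic acid, changed by 4.19, with 2.16 and 10.7 CPM at day 3 and 0.423 and 39.1 CPM at day 7, and by 3.54 without Sox17 replicate 1 of day 7. Pdgfb changed by 4.11, with 0.139 and 7.37 CPM at day 3 and 0.0596 and 60.2 CPM at day 7, and by 5.34 without control replicate 2 of day 7.

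C7 changed by -7.80, a fitted value and no bound, since it was at 0 counts with Sox17 at day 7, with 25.8 CPM in control. At day 3 it read 1.60 CPM in control and 0.0573 CPM with Sox17, and without Sox17 replicate 2 of day 3 the value was -6.93. Lipf, a lipase, changed by -6.26, with 0 CPM in control and 10.9 CPM with Sox17 at day 3 and 0.0282 and 1.05 CPM at day 7, again a fitted value, which was -3.37 without control replicate 3 of day 7. Akr1c18, a steroid reductase with close relatives, changed by -5.89, from 0.033 and 16.9 CPM at day 3 to 0.106 and 0.804 CPM at day 7, and by -8.92 without control replicate 2 of day 3. Ces1g, a carboxylesterase with close relatives, changed by -5.68, from 0.0512 and 17.7 CPM to 0.419 and 2.63 CPM, and by -9.23 without control replicate 3 of day 3. Adamts15, a matrix protease, changed by -5.40, from 7.66 and 11.8 CPM to 58.4 and 2.15 CPM.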

How the results depend on the processing

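Calls of Sox17 against control fell from 4366 higher and 3696 lower to 2102 and 1866 when the change had to lie beyond 1.5-fold, to 2207 and 2115 when only the 6 libraries were fitted, and to 1504 and 1461 with a replicate block added to that fit. A replicate block over all libraries gave 4252 and 3725, DESeq2 4580 and 3787, and no filter on low counts 4690 and 3259 of 23042 genes. Same-numbered libraries of Sox17 and control share only a number. Leaving out each replicate gave 3830 to 4856 higher and 3312 to 4085 lower. For the change between the days (1127 higher, 986 lower) these settings gave 352 and 286 beyond 1.5-fold, 545 and 543 with only the groups compared, 378 and 356 with the replicate block there, and 2478 and 2723 with limma-voom and sample weights. Leaving out each replicate gave 872 to 1750 higher, the highest without Sox17 day 7 replicate 3, and 734 to 1397 lower. For SEG against Sox17 (2776 higher, 3134 lower) they gave 1103 and 1241 beyond 1.5-fold, 1015 and 1161 with only the groups compared, 1920 and 1993 with the replicate block there, and 4286 higher with voom. The fits on fewer libraries have fewer residual degrees of freedom (4 against 16 for Sox17 and control), and they take the spread from those libraries alone. The cause of these shifts was not tested. Postn, not called at a log2 change of -0.06, read 0.1598 with voom and 0.2005 without both outlying day 7 libraries. Among all settings for 234 main results of single genes, 3415 values were classed as the same, 124 as weaker and 1 as stronger. A further 8 were classed as moved and 2, of Postn, as reversed. These classes do not count every change of sign. Erg against control, not called, went from a log2 change of -0.15 to 2.77 without control replicate 1 and to 0.52 without Sox17 replicate 1. Depth limits genes at few control counts, whose log2 changes hang on 1 library.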

Other observations

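Of the 492 tested genes on the X chromosome, 52 were called at least 4-fold higher with Sox17 at day 7 (10.6%). On the autosomes the share ran from 5.0% on chromosome 2 to 8.56% on chromosome 6. Of all tested X genes 28.5% were called higher, and their median log2 change was 0.02. The autosomes were compared after the X-linked rises had been seen.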
